A study of Mus musculus with 5 samples.

Results

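Among the genes profiled in 5 clones, each grown from 1 sorted cell of the mouse osteocytic line Ocy454, 49 of 23185 named genes encode or are named like subunits of the vacuolar proton pump, cathepsin proteases and a few partners of acid secretion. They were taken by name: every gene whose platform symbol starts with Atp6v0, Atp6v1 or Atp6ap, every cathepsin with a one-letter suffix, and Acp5, Car2, Slc4a2, Tcirg1, Clcn7 and Ostm1. The rule itself was chosen with earlier results of these data known. The names bring in 12 genes of the V1 domain, 9 of the V0 domain (Tcirg1 included), 3 accessory genes, 18 cathepsins and 5 further acid secretion genes. They also bring in 2 genes that are not subunits, Atp6v0c-ps2, a pseudogene of a V0 proteolipid gene, and Atp6v1fnb, named for its place next to Atp6v1f. Atp6v1f and Atp6v0c themselves are not analysed here.

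All 5 are untreated Ocy454 clones, grown in the same serum-containing medium for 7 days at 37 °C. Of 37 clones screened for Sost, which encodes the Wnt inhibitor sclerostin, clones 12H and 15H had the highest Sost (high-Sost clones, n = 2), and clones 4L, 9L and 24L had low Sost (low-Sost clones, n = 3). Each clone is 1 array, so the spread within a group mixes clone and culture differences, and clones of a single line stand in for osteocytes. Of 12 osteocyte and osteoblast markers, the mean log2 level was 7.84 in 12H, 7.57 in 15H, 6.47 in 9L, 6.45 in 24L and lowest, at 4.89, in 4L. Of these 12, 7 (58.3%) were higher and 1 (8.33%) lower without overlap, against 8.26% and 7.75% of all genes. Sost, by which the clones were chosen, is among the 7 and is no independent support. In this list 0 passed and the median difference was 1.40. Phex stood at 3.90 (SE 0.49), Bglap at 2.04 (SE 0.28) and Pdpn at -0.92 (SE 0.13). Sost itself read 4.08 and 3.92 in the high-Sost clones, while 4L, 9L and 24L read 3.78, 3.89 and 3.91, so on these arrays it hardly separated the labels. Mepe and Fgf23, markers of mature osteocytes, were not above background in the mean of the 5 clones. Values are RMA log2 expression, with array medians of 4.04 to 4.08, and precision is limited by having 5 arrays. Background here is 3.38, the 95th percentile of the 5-clone means of 1354 olfactory and vomeronasal receptor genes. Taken array by array, this percentile was 3.55 and 3.56 in 12H and 15H, and 3.45, 3.42 and 3.37 in 4L, 9L and 24L. Differences are high-Sost minus low-Sost clones on the log2 scale, with limma's moderated standard error (SE).

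The vacuolar proton pump, or V-ATPase, moves protons into lysosomes and, in osteoclasts, across the plasma membrane toward bone. Its cytosolic V1 domain hydrolyses ATP and its membrane V0 domain carries the protons. The proton flow is balanced by chloride through CLC-7 with its partner Ostm1, while carbonic anhydrase 2 (Car2) supplies protons and the exchanger Ae2 (Slc4a2) removes bicarbonate. Cathepsins are proteases that work mostly in the acid interior of lysosomes, and cathepsin K also cuts collagen of the bone matrix. Osteocytes use a similar set of genes when they dissolve and rebuild the matrix around their lacunae, a process called perilacunar remodelling.

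Many lysosomal genes are known to carry an E-box, CACGTG, which is bound by TFEB and related factors, so the 250 bases before each gene's start were searched for it in the RefSeq promoter table (GRCm38.p6). The motif reads the same on both strands. Of 36 members with an entry, 7 (19.4%) held it, against 1854 of 27025 genes (6.86%) with an entry. Of the named genes with an entry, 7.79% held it. Among related lists, it was in 7 of 28 lysosomal hydrolases, 5 of 16 lysosomal membrane genes and 4 of 9 mannose 6-phosphate sorting genes. It was also in 3 of 10 V-ATPase assembly factors, 2 of 10 osteocyte and osteoblast markers and 1 of 7 lysosomal transcription regulators. The cystatin, matrix protease, osteoclast and macrophage lists held it in 0 genes. The longer form TCACGTG, on either strand and always overlapping the shorter one, was in 5 members (13.9%) and in 3.58% of all genes. The 7 member promoters are shown because they hold the one motif searched here. Each stretch runs 5′ to 3′ on the gene's strand, with CACGTG in capitals.
Atp6v0b: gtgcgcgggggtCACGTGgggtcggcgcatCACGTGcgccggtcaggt
Atp6v1a: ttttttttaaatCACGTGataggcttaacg
Clcn7: tccgtcgtcagtCACGTGggcaccgat
Ctsa: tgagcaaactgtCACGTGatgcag
Ctsd: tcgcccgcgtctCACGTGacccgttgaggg
Ctsf: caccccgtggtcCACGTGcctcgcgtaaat
Ctsl: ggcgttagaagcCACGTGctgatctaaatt

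The Atp6v0b stretch lies at chr4:117887330-117887377 (minus strand) and holds 2 copies, beginning 36 and 18 bases before the start. The others lie at chr16:44139373-44139402 (Atp6v1a, minus), chr17:25133364-25133390 (Clcn7, plus), chr2:164833749-164833772 (Ctsa, plus), chr7:142387908-142387937 (Ctsd, minus), chr19:4855074-4855103 (Ctsf, plus) and chr13:64370739-64370768 (Ctsl, minus). Ctsd held a further copy 245 bases before its start. Ctsf and Ctsl held only the shorter form. A match describes these letters and is not evidence of binding. The motif was in 0 of the 7 members with an entry that read higher in both high-Sost clones, described below, and in 0 of the 2 that read lower.

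The genes of this group showed no difference between high-Sost and low-Sost clones that passed the test. The member with the widest range over the 5 clones, Ctsk, was highest in a low-Sost clone. None of the 49 members reached an adjusted p under 0.05 in limma, where 0 of 23185 genes (0%) passed, and the smallest adjusted p among members was 0.572, for Atp6v0d1. At an unadjusted p under 0.05 in limma, 4 of the 49 members were higher, against 3.07% of all genes, and 2 of the 49 were lower, against 2.71%. Both member shares were the larger, on small counts. An unmoderated equal-variance test passed 0 members as well. In 8 members (16.3%) both high-Sost clones read above all low-Sost clones, against 8.26% of all genes. In 3 members (6.12%) both read below all of them, against 7.75%. The higher members were Atp6v1b1, Atp6v1b2, Atp6v0a1, Atp6v0d1, Atp6v0e2, Ctsz, Ostm1 and Slc4a2, and the lower ones Atp6v0e, Ctsb and Ctsc. The median difference over all 49 was 0.05, beside 0 over all genes. In 33 members (67.3%) the range among the 3 low-Sost clones exceeded the difference between the groups, much as in 68.8% of all genes.

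**Figure D1:**
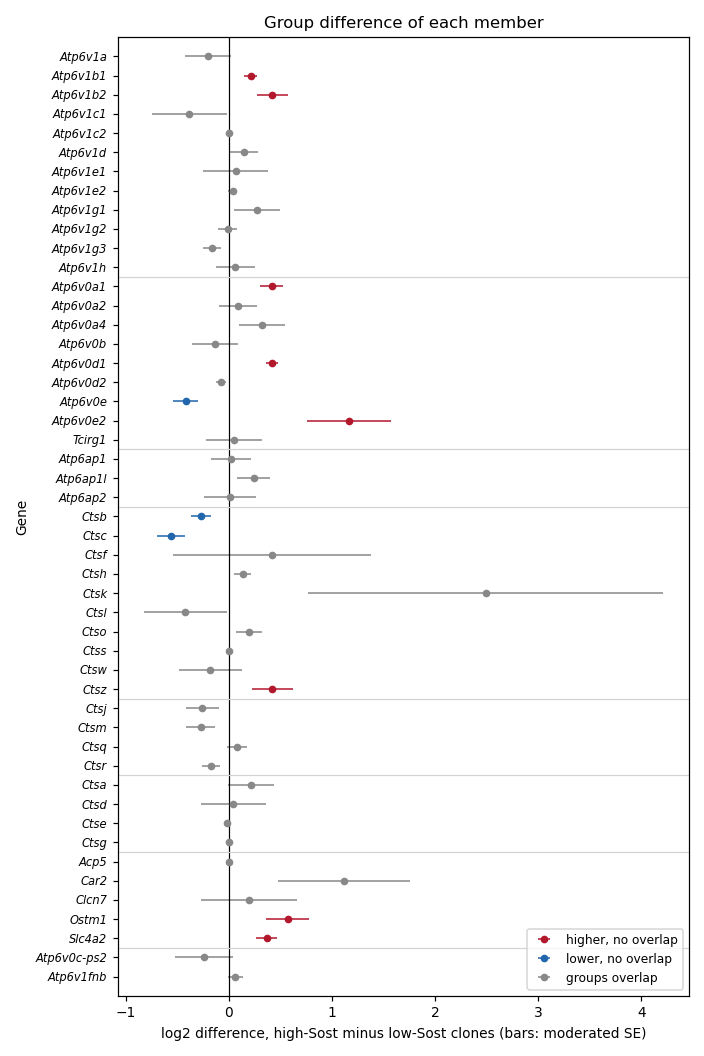
Group difference of each of the 49 members in log2 units, high-Sost (n = 2) minus low-Sost (n = 3) clones, with bars of 1 moderated SE; red and blue mark members whose groups do not overlap. Most points lie within 0.5 of 0, and Ctsk, at 2.49, has the longest bar, with low-Sost clones that span 4.85.

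Counts of members without overlap depend on the clones used, since fewer clones overlap less often. Without 9L, 14 of the 49 members were higher, and without 12H 17 of the 49 were. Both are larger shares than the 13.6% and 18.7% of all genes, and the excess was not tested. Without 15H, 12 of the 49 members were higher, a share close to the 25.2% of all genes. The count of lower members was 8 of 49 without 12H, 15H or 24L and 5 of 49 without 4L, beside 11.1% to 21.0% of all genes. The member share was the larger only without 24L. Quantile normalization again gave 10 higher and 9 lower of the 49 members, both larger shares than the 10.6% and 12.3% of all genes.

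Of the V1 domain genes, 10 of 12 averaged above background. The catalytic A subunit (Atp6v1a) read 8.95 and 9.43 in 12H and 15H, while 4L, 9L and 24L read 9.51, 9.55 and 9.13, a difference of -0.20 (SE 0.22). Both groups overlapped, with 15H above 24L. The B2 subunit (Atp6v1b2), the widely expressed partner of A in the ATPase ring, read 9.39 and 9.06 against 8.97, 8.75 and 8.69. Both high-Sost clones stood above the rest, though 15H only narrowly exceeded 4L. Its difference was 0.42 (SE 0.15), or 1.34-fold, and did not pass (adjusted p = 0.737).

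The stalk and regulatory subunits gave smaller or less even differences. Atp6v1c1, which joins the V1 and V0 domains, read 8.98 in 12H and 9.37 in 15H, while 4L, 9L and 24L read 9.81, 9.90 and 8.98. Clone 24L thus stood with the lower high-Sost clone, and the low-Sost clones alone spanned 0.93. Atp6v1d (0.15, SE 0.14), Atp6v1e1 (0.06, SE 0.32), Atp6v1g1 (0.27, SE 0.22) and Atp6v1h (0.06, SE 0.19) overlapped between groups. Atp6v1d, Atp6v1e1 and Atp6v1g1 were each lowest in 24L. The median difference of the 12 V1 genes was 0.05, with differences from -0.38 to 0.42, and the median was 0 without 4L and 0.12 without 9L.

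The isoforms known for narrower expression stayed low. Atp6v1c2 read 2.69 in every clone and Atp6v1g3 at most 3.05. Atp6v1b1, the isoform of acid-secreting kidney and inner ear cells, read 3.70 and 3.69 against 3.53, 3.53 and 3.38, close to background. Its lack of overlap thus covers a difference of 0.21 at the edge of detection. The receptor percentile of single arrays was also higher in both high-Sost clones. Atp6v1e2, a testis isoform, and Atp6v1g2, a brain isoform, averaged above background, and ranged over 0.10 and 0.27 among the clones.

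The V0 domain held the widest group difference of any pump subunit, in one of its 2 genes for the small e subunit. Atp6v0e2 read 6.83 in 12H and 6.26 in 15H, while 4L, 9L and 24L read 5.12, 5.997 and 5.03. The groups did not overlap, but 9L lay closer to 15H than to the other low-Sost clones. The means were 6.54 ± 0.40 (SD, n = 2) and 5.38 ± 0.54 (SD, n = 3). That 2.24-fold difference (1.16, SE 0.41) missed the threshold of limma's test (adjusted p = 0.737). No other member was 2-fold or more higher without overlap, while 0.867% of all genes were. No member was 2-fold or more lower without overlap, while 0.983% of all genes were. Its paralog Atp6v0e, which encodes the widely expressed form of the same subunit, ran the other way. Atp6v0e read 9.05 and 9.19 against 9.73, 9.48 and 9.43, a difference of -0.42 (SE 0.12) with both high-Sost clones below every low-Sost clone (adjusted p = 0.737).

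Atp6v0d1, the stalk subunit that couples V0 to the rotor of V1, had the smallest p of the members. It read 10.04 in 12H and 9.89 in 15H, and 9.57, 9.55 and 9.52 in 4L, 9L and 24L, so that the low-Sost clones lay within 0.05 of each other. The difference was 0.41 (SE 0.06), or 1.33-fold. Its isoform Atp6v0d2, which osteoclasts use, read between 1.44 and 1.61 in all clones, under background.

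The a subunit anchors the pump and directs it to its membrane, and its 4 genes did not move alike. Atp6v0a1 read 8.18 and 7.97 in 12H and 15H, with 4L, 9L and 24L at 7.57, 7.80 and 7.62, a difference of 0.41 (SE 0.11) without overlap (adjusted p = 0.737). Atp6v0a2, the Golgi and endosome form, differed by 0.09 (SE 0.18) with overlapping groups. Tcirg1, the a3 subunit that osteoclasts place in their bone-facing membrane, read 7.16 in 12H and 7.94 in 15H, which were the lowest and the highest of the 5 clones, while 4L, 9L and 24L read 7.55, 7.55 and 7.41. Its difference was 0.05 (SE 0.27), and without 15H it turned to -0.35. Atp6v0a4, the kidney form, averaged under background. The median difference of the 9 V0 genes was 0.09, and 0.31 without 12H.

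The remaining V0 gene, Atp6v0b, one of the proteolipid ring, differed by -0.14 (SE 0.22) and read lowest in 24L. The pseudogene Atp6v0c-ps2 read 9.23 to 10.05, and since such a copy may share probe sequence with its parent gene, its level is uncertain as that of either. Of the accessory genes, Atp6ap1 and Atp6ap2, which aid pump assembly, differed by 0.02 (SE 0.19) and 0.01 (SE 0.25). Both were highest in 15H and lowest in 12H, so the 2 high-Sost clones stood further apart than the groups. Atp6ap1l and Atp6v1fnb averaged under background.

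Seen by clone, the pump genes stood lowest in 24L. Averaged over the 21 V1 and V0 genes, the deviation from the 5-clone mean was -0.19 in 24L, -0.004 in 4L, 0.07 in 9L, 0.05 in 12H and 0.08 in 15H. Over all 49 members 24L had the lowest value in 17 (34.7%) and the highest in 3 (6.12%), against 17.0% and 16.0% of all genes. In 4L the count was 10 lowest and 11 highest, and in 15H 6 lowest and 11 highest. The shift of 24L also appeared in the mannose 6-phosphate sorting list (-0.19) and the lysosomal membrane list (-0.17). In the lysosomal hydrolases 9L was lowest (-0.16) and 24L next (-0.13). The array median of 24L, 4.08, was the highest of the 5, with 9L next at 4.07. Its 95th percentile of receptor genes, 3.37, was the lowest, with the other arrays at 3.42 to 3.56. Whether array differences play a part in the shift of 24L was not tested.

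**Figure D2:**
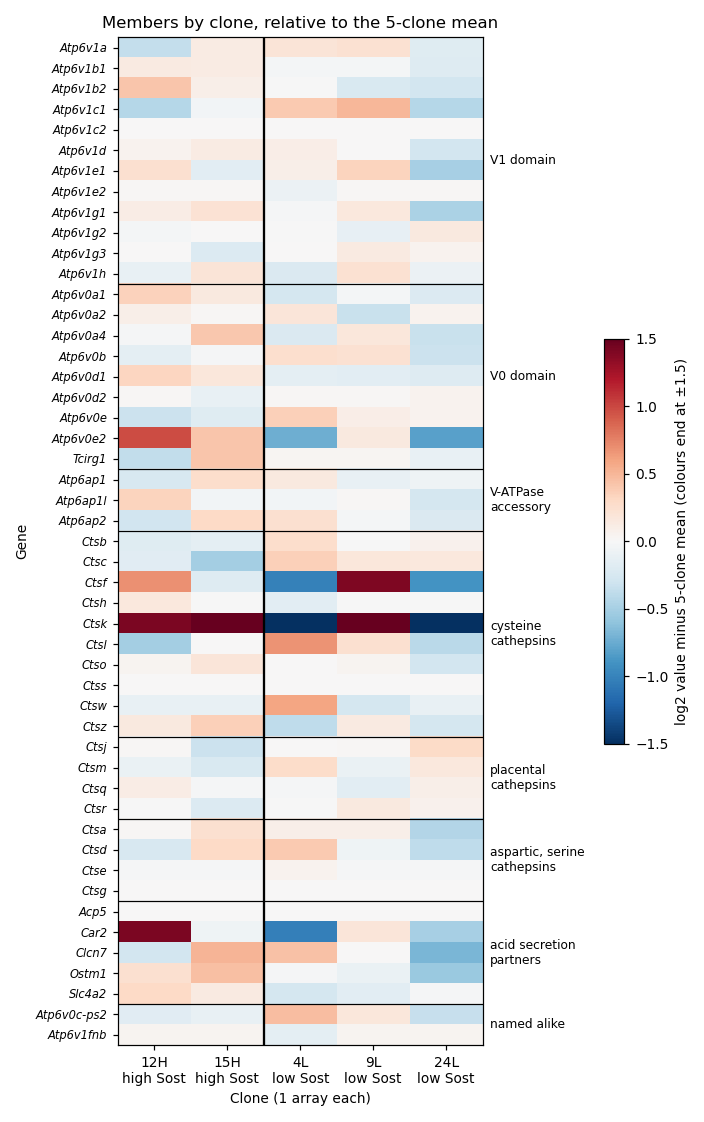
Log2 value of each of the 49 members in each clone minus its 5-clone mean, 1 column per array, with high-Sost clones left of the thick line; colours end at 1.5 in either direction. Clone 24L is blue for most V1 and V0 genes, and Ctsk, Ctsf, Car2 and Atp6v0e2 carry the strongest colours.

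Cathepsin K separated the clones more than any other member, and not along the Sost label. Ctsk (Entrez gene 13038) read 7.85 and 8.02 in 12H and 15H. Of the low-Sost clones, 9L read 8.35, 24L 4.48 and 4L 3.50. Clone 9L was thus the highest of all, and the low-Sost clones spanned 4.85 log2 units, from near background to above the high-Sost clones. The means were 7.94 ± 0.12 (SD, n = 2) and 5.44 ± 2.56 (SD, n = 3). The difference, 2.49 (SE 1.72), was smaller than the SD of the low-Sost group and did not pass limma (adjusted p = 0.737). It was 3.94 without 9L and 1.52 without 4L. The 4L clone also had the lowest mean of the osteocyte and osteoblast markers, and 24L and 9L lay level in that mean (6.45 and 6.47). That mean hides a split between single markers. Among the low-Sost clones Sp7, Ibsp and Alpl fell from 9L to 24L to 4L, as Ctsk did. Bglap also read higher in 9L than in 24L, and the rest of the list read higher in 24L. Whether marker level plays a part in Ctsk was not tested.

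Cathepsin F, a lysosomal cysteine protease, was also highest in 9L and lowest in 4L. Ctsf read 5.19 in 12H and 4.31 in 15H, and 5.90 in 9L against 3.60 in 24L and 3.49 in 4L, the latter near background. The low-Sost clones spanned 2.41 and the group difference was 0.42 (SE 0.96), which turned to -0.005 without 4L and to -0.021 without 12H. Cathepsin L (Ctsl), a broad lysosomal endopeptidase, had another order, with 4L highest at 10.87, then 9L at 10.43, 15H at 10.19, 24L at 9.79 and 12H at 9.68. Its groups overlapped (difference -0.42, SE 0.40).

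**Figure D3:**
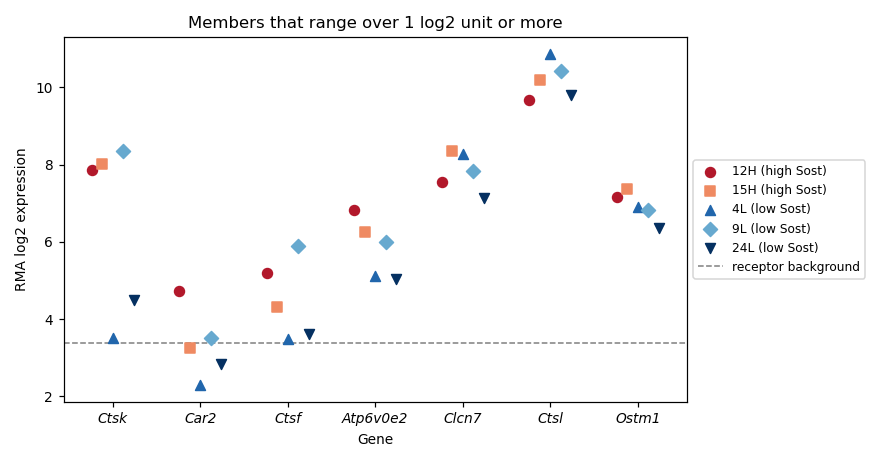
RMA log2 expression in each of the 5 clones, 1 point per array, for the 7 members that range over 1 or more; the dashed line is the receptor background of 3.38. For Ctsk and Ctsf the low-Sost clone 9L lies above the high-Sost clones, while 4L and 24L lie below them.

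Cathepsins C and B read lower in both high-Sost clones. Ctsc, an exopeptidase that activates serine proteases of leukocyte granules, read 6.42 in 12H and 6.09 in 15H, against 6.95, 6.76 and 6.75 in 4L, 9L and 24L. The gap between the groups, from 12H to 24L, was about as wide as that between 12H and 15H. The difference was -0.56 (SE 0.14), or 1.48-fold lower, with adjusted p = 0.737. Ctsb, among the most abundant lysosomal cysteine proteases, read 11.01 and 11.05 against 11.46, 11.18 and 11.26, a difference of -0.27 (SE 0.10).

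Cathepsin Z (Ctsz), a carboxypeptidase, read 9.92 and 10.13 in 12H and 15H, and 9.39, 9.91 and 9.51 in 4L, 9L and 24L. The groups did not overlap, but 12H and 9L were nearly level, and the difference was 0.42 (SE 0.20). Of 10 cysteine cathepsins outside the placental cluster, 1 (10%) was thus higher and 2 (20%) lower without overlap, against 8.26% and 7.75% of all genes. Their median difference was 0.07, turned to -0.011 without 12H and was 0.027 without 24L. Ctso overlapped between groups (0.19, SE 0.13).

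The aspartic protease cathepsin D (Ctsd) and the serine carboxypeptidase cathepsin A (Ctsa), a partner of lysosomal glycosidases, differed by 0.04 (SE 0.32) and 0.21 (SE 0.22). Ctsd read 10.09 and 10.63 against 10.72, 10.27 and 9.95, with the high-Sost clones between 4L and 24L. For both genes 24L read lowest. The cathepsins typical of blood cells or other tissues stayed low. Ctss and Ctsg held a single value on all arrays, 2.31 and 3.18, and Ctse and Ctsh averaged 3.07 and 2.52. Ctsw averaged 3.38, just under background, with 4L at 3.97 and the others at 3.11 to 3.27. The placental cathepsins Ctsj, Ctsm, Ctsq and Ctsr, which form a rodent-specific cluster, read 1.04 to 2.80.

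Among the partners of acid secretion, Ostm1 and Slc4a2 read higher in both high-Sost clones. Ostm1, the beta subunit of the CLC-7 transporter, read 7.16 and 7.37 in 12H and 15H, and 6.90, 6.82 and 6.36 in 4L, 9L and 24L. The means were 7.26 ± 0.15 (SD, n = 2) and 6.69 ± 0.29 (SD, n = 3). The 1.48-fold difference (0.57, SE 0.21) missed limma's threshold (adjusted p = 0.737). Slc4a2 read 7.75 and 7.59 against 7.18, 7.29 and 7.43, a 1.29-fold difference without overlap that did not pass either (adjusted p = 0.737).

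Clcn7, the partner of Ostm1, had no such separation. It read 7.55 and 8.34 in 12H and 15H, and 8.27, 7.83 and 7.15 in 4L, 9L and 24L. The groups overlapped throughout (0.20, SE 0.46), and the difference turned to -0.20 without 15H and to -0.10 without 24L. Car2 read 4.72 in 12H, 3.25 in 15H, 2.29 in 4L, 3.50 in 9L and 2.82 in 24L. Only 12H stood clearly above background, the mean of the 5 clones was under it, and the difference was 1.12 (SE 0.64). Acp5, the tartrate-resistant acid phosphatase of osteoclasts, held the single value 3.48 on all 5 arrays, just above background, so nothing can be said of its differences. In all, 4 members (Acp5, Atp6v1c2, Ctss and Ctsg) held 1 value on every array, as did 5.52% of all genes.

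In all, 33 of 49 members averaged above background, with Acp5 just inside that limit at 3.48 and Ctsw just outside it at 3.38. A range over the 5 clones of 1 or more was found in 7 members (14.3%), Ctsk, Car2, Ctsf, Atp6v0e2, Clcn7, Ctsl and Ostm1, against 11.7% of all genes. The median range was 0.59 in the members and 0.39 over all genes.

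Markers of osteoclasts and blood cells, which use many of these genes, were mixed. Of 10 osteoclast markers 7 averaged above background. The mean log2 level of the 10 was 3.98 and 4.00 in 12H and 15H, with the low-Sost clones at 4.07 to 4.16. Of the 7, Dcstamp held the single value 3.58 on all arrays. Csf1r, Siglec15 and Ocstamp were nearly flat as well, ranging over 0.01, 0.03 and 0.09. Whether these flat markers are expressed is therefore uncertain. The receptors Calcr, Tnfrsf11a and Oscar averaged under background. Nfatc1, a transcription factor of osteoclasts and other cells, averaged 6.26 and ranged over 0.94, and Itgb3, an integrin subunit, averaged 5.15 and Siglec15 5.12. Mmp9, a gelatinase also listed among the matrix proteases, was the only one of the 10 without overlap (-1.09, SE 0.54). Of all genes, 7.75% were lower in this way. Of 10 macrophage and blood markers 4 averaged above background, with means of 3.30 and 3.45 in the high-Sost and 3.33 to 3.44 in the low-Sost clones. Of these 4, Spi1 held the single value 3.57 on all arrays. Ptprc, the pan-leukocyte marker, read at most 1.91 and Tyrobp at most 3.35, while Cd68, a lysosomal glycoprotein abundant in macrophages, read 5.27 and 6.13 in 12H and 15H, and 6.97, 5.51 and 5.88 in 4L, 9L and 24L. The part of such cells in the members' values was not tested. Fcer1g read higher in both high-Sost clones (0.33, SE 0.17). In such bulk cultures fewer cells expressing a gene and less RNA per cell cannot be told apart.

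Other lysosomal genes gave a setting for these values, and 0 of them passed limma over all genes. Of 32 lysosomal hydrolases, 6 (18.8%) were higher and 1 (3.12%) lower without overlap, against 8.26% and 7.75% of all genes. Their median difference was 0.10. Manba and Man2b1, which remove mannose from glycoproteins, differed by 0.80 (SE 0.13, adjusted p = 0.602) and 0.84 (SE 0.18), and Idua, which degrades glycosaminoglycans, by 0.65 (SE 0.12). Manba read 8.48 and 8.65 in the high-Sost clones, against 7.93, 7.78 and 7.59 in 4L, 9L and 24L. Of 18 lysosomal membrane genes, 5 (27.8%) were higher and 2 (11.1%) lower without overlap, the latter Cln3 at -1.12 (SE 0.59) and Mfsd8 at -0.31 (SE 0.17). Tpcn1, a cation channel of endosomes and lysosomes, read 8.51 and 8.64 against 6.97, 7.60 and 6.94, a difference of 1.40 (SE 0.25) or 2.65-fold (adjusted p = 0.624). Scarb2, the receptor that carries glucocerebrosidase to lysosomes, and Slc17a5, the sialic acid exporter, differed by 0.66 (SE 0.21) and 0.34 (SE 0.14).

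**Figure D4:**
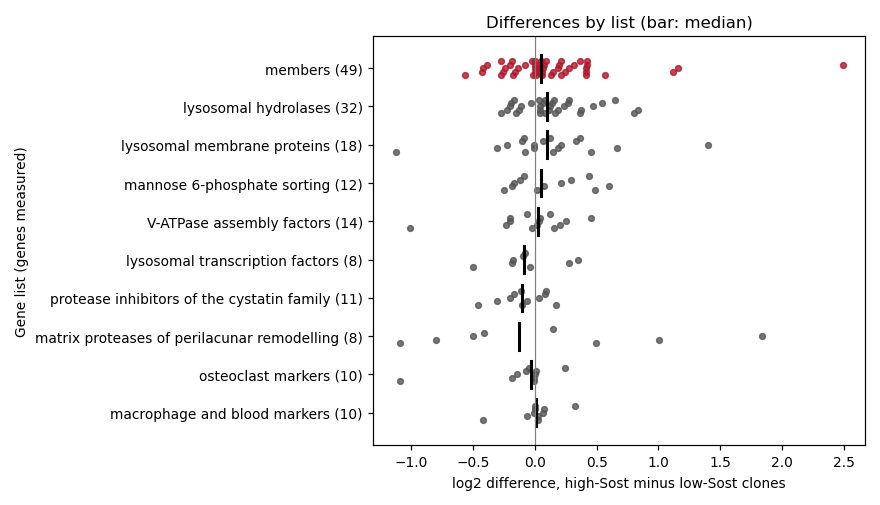
Log2 differences, high-Sost minus low-Sost clones, 1 point per gene, for the 49 members and 9 related lists, with a bar at each median; the osteocyte and osteoblast markers (median 1.40) are not drawn. The medians drawn lie between -0.13 and 0.10. Single genes such as Ctsk at 2.49, Mmp13 at 1.84 and Tpcn1 at 1.40 lie far to the right. Cln3 at -1.12, Mmp9 at -1.09 and Oxr1 at -1.01 lie furthest to the left.

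The genes that sort and assemble these proteins were read in the same way. Of 12 genes of mannose 6-phosphate sorting, which sends hydrolases and cathepsins to lysosomes, 2 (16.7%) were higher and 1 (8.33%) lower without overlap. Of all genes, 8.26% were higher and 7.75% lower. Gnptab, which makes the tag, differed by 0.60 (SE 0.26), Sort1, a sorting receptor, by 0.44 (SE 0.17) and Nagpa, which uncovers the tag, by 0.49 (SE 0.32). Of 14 assembly factors of the V-ATPase, 0 were lower and 1 (7.14%) was higher, Dmxl2 (0.45, SE 0.17), which helps V1 dock on V0. Ncoa7 differed by 0.25 (SE 0.11). Oxr1, of the same protein family as Ncoa7, differed by -1.01 (SE 0.62) with overlapping groups. Of 11 cystatin family genes, inhibitors of cysteine cathepsins, 0 were without overlap, with Cstb at -0.46 (SE 0.29), Cst7 at 0.17 (SE 0.10) and Cst9 at 0.09 (SE 0.06).

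Among 8 regulators of lysosomal transcription 1 (12.5%) was lower and 0 were higher without overlap, against 7.75% and 8.26% of all genes. Mitf read 5.17 and 4.83 against 5.40, 5.71 and 5.38 (-0.50, SE 0.17), Fnip2 differed by 0.35 (SE 0.31), and Tfec averaged under background. Of 8 matrix proteases tied to perilacunar remodelling, 2 (25%) were higher and 2 (25%) lower without overlap, against 8.26% and 7.75% of all genes. Their median difference was -0.13. The lower ones were Mmp9 (-1.09, SE 0.54) and Adamts4 (-0.41, SE 0.21), and the higher ones Mmp14 and Mmp13. Mmp14, a membrane collagenase, read 10.67 and 10.51 against 9.99, 10.12 and 10.16. Mmp13, a secreted collagenase, read 3.73 in 12H and 5.81 in 15H against 2.56, 3.23 and 3.00, a difference of 1.84 (SE 0.73) carried mainly by 15H. Neither passed the test (adjusted p = 0.602 and 0.737).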

How the data were processed

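The authors deposited log2 expression values per probe set for 5 Affymetrix arrays, 1 per clone, and RMA, R 2.15.1 and affy 1.36.1 are listed, without a role, in the submitters' processing notes. RMA brings arrays to nearly 1 distribution, so levels are comparable between clones but not between genes. Chip definition and build are not given in the sources available. Of 25206 probe sets, 23185 carried 1 gene symbol and all matched the RefSeq gene table; the 2021 unnamed ones were left out. The 2 groups were compared in R 4.3.3 by limma 3.58.1 (lmFit on the group, eBayes without trend, residual degrees of freedom 3, prior 0.70). Its two-sided p-values were adjusted over all 23185 genes (Benjamini-Hochberg) and called under 0.05. With 2 and 3 clones, no exact permutation p can fall below 0.1. The fit was tested on simulated data.

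Values of every clone are given for Acp5, Car2, Slc4a2, Tcirg1, Clcn7, Ostm1 and Ctsk, for members without overlap and an absolute difference of 0.5 or more, and for members above background with a range of 1 or more. From each of 10 related lists up to 3 genes with the smallest p are named. Other members, list genes and markers named were chosen after their values were seen. Members and lists were chosen with earlier results of these data known. Alternatives were other normalizations, filters, variance models and leaving out each clone. Figures were drawn with matplotlib 3.10.9.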

Additional observations from a re-analysis of the deposited data

How the results depend on the processing

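Of 45 members with a difference other than 0, all 45 kept their direction in the alternatives that keep all clones, where measured, and 30 kept it without any one clone. No member passed limma in any of the 12 alternatives. With arrays shifted to 1 median, 2 genes passed, Megf10 and Spns2, and 1, Sycp1-ps1, passed an unmoderated equal-variance test, and none of these is a member. With any one clone left out, 0 genes passed. Members lower without overlap were 9 after quantile normalization again, and 4 to 8 with one clone left out. Members higher without overlap were 8 to 17 with one clone left out, and 12 with arrays shifted to 1 median, where the share of all genes also grew, from 8.26% to 15.2%. With one clone left out, the median difference lay between 0.069 and 0.31 for V0, 0 and 0.12 for V1, and -0.011 and 0.080 for the cysteine cathepsins. Among the genes given by clone, directions then turned for Ctsf, from -0.021 to 1.20 (-0.005 without 4L), for Clcn7, from -0.20 to 0.59 (-0.10 without 24L), for Tcirg1, from -0.35 to 0.44, for Atp6v1a, from -0.44 to 0.036, for Ctsd, from -0.23 to 0.31, and for Ctsw, from -0.35 to 0.077. The cause of these turns was not tested. Without 12H or 15H the fit takes the spread of the remaining high-Sost clone to be that of the other group. No paired analysis was possible because the clones carry no shared replicate numbers. Signal over background limits what can be seen in the 16 members that did not average above it.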

Other observations

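The genes next to the 6 members that averaged above background and ranged over 1 or more were read after those values were seen, taking 2 named genes on each side. Of these 24 neighbours, 2 ranged over 1 or more, against 11.7% of all genes. Without overlap, 2 were higher (Zfp862-ps and Sec63) and 0 lower, against 8.26% and 7.75% of all genes. Arnt, the neighbour of Ctsk on one side, ranged over 0.25, while Ctsk ranged over 4.85. Ctss, the neighbour of Ctsk on the other side, held the value 2.31 on all arrays. That is under background, so Ctss could not show a change. Actn3, a muscle actinin gene next to Ctsf, read 6.44 in 12H, 5.74 in 15H, 4.35 in 4L, 5.99 in 9L and 5.09 in 24L. Zfp862-ps, next to Atp6v0e2, read 7.14 in 12H, 6.20 in 15H, and 5.17, 5.72 and 5.86 in 4L, 9L and 24L. Sec63, a translocation factor of the endoplasmic reticulum next to Ostm1, read 9.09 and 9.00 against 8.58, 8.72 and 8.45. Whether neighbouring genes share their contrasts was not tested.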
